A study of Mus musculus with 6 samples.

Results

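The genes described here are those of the unfolded protein response and the integrated stress response, 40 genes fixed by name and looked up on the array by symbol or by the current symbol of the RefSeq accession. Of the 40, 36 had at least 1 probe, 55 probes in all, and 30 were bright enough to be tested among 8990 genes, with a probe above background (detection p under 0.05) on 3 or more of the 6 arrays. Eif2ak3, Atf6, Dnajb11 and Sdf2l1 were not analysed here. Eif2ak4, Ern1, Canx, Manf, Derl1 and Derl3 had probes that did not pass.

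The cells were mouse embryonic fibroblasts, connective tissue cells cultured from embryos, of the C57BL/6 background. The series concerns where translation of NELF-B starts. NELF-B is a subunit of the negative elongation factor, which holds RNA polymerase II near promoters. In 3 samples the cells carried truncated NELF-B, called ATG in the titles, and in 3 they carried full-length NELF-B. Both groups grew in DMEM with 10% FBS and were taken at 50% confluence, with no stressor named for either. The labels do not say how either form was introduced, whether a line is 1 clone, or whether a group's 3 samples came from different cultures, so p-values here reflect only the spread between samples, which may be technical.

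The Nelfb probe read 7.01, 7.08 and 6.93 with truncated and 6.78, 6.63 and 6.64 with full-length NELF-B (log2 fold change 0.32 ± 0.11, adjusted p = 0.144, limma), and since its place in the transcript is not in the files it does not check the labels. The arrays were alike in depth, with 46.4% to 48.7% of probes above background and median intensities of 143 to 152. Of 10 fibroblast markers with a probe, 9 were above background on every array, including Col1a1, Col1a2, Pdgfra and Vim, and Thy1 on none. Of 26 markers of epithelial, endothelial, blood, pluripotent, neural and muscle cells, 12 were above background on no array and only Map2 and Pou5f1 on all 6. Their summed normalized intensity was 831 to 889 with truncated and 894 to 945 with full-length NELF-B, against 21590 to 23310 and 22850 to 27400 for the fibroblast markers.

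As background, cells answer misfolded protein in the endoplasmic reticulum (ER) through the sensors PERK (Eif2ak3), IRE1 (Ern1) and ATF6. IRE1 splices Xbp1 mRNA, and XBP1 and cleaved ATF6 raise the chaperones and the machinery that exports misfolded protein for degradation. PERK belongs to a family of kinases, with GCN2 (Eif2ak4), HRI (Eif2ak1) and PKR, that phosphorylate the initiation factor eIF2alpha. This slows translation in general but lets ATF4 mRNA be translated, so that ATF4 is governed largely at the level of its protein. ATF4 then switches on genes for amino acid supply and, with CHOP (Ddit3), for feedback and cell death. Amino acid shortage or heme shortage can engage the ATF4 branch without the ER branches.

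Of the 30 genes tested, 2 rose with truncated NELF-B and none fell. Both were targets of the ATF4 branch, Trib3 at 1.57-fold and Chac1 at 1.48-fold. A call needed an adjusted p below 0.05 from limma, adjusted across the whole table. Over all genes 1.6% were called, 0.512% higher and 1.09% lower. The log2 fold change was positive for 23 of the 30 genes and had a median of 0.12. Among all 8990 genes 51.7% were positive and the median was 0.01. On 9 of the 30 every truncated array lay above every full-length array, which held for 12.9% of all genes. On 1, Pdia4, every truncated array lay below, as for 12.8% of all genes. The filter passed 29 of the 30 on every array, and Hspa5 passed through all 3 truncated arrays and only 1 full-length array. In bulk RNA a lower share of expressing cells and less RNA per cell cannot be told apart.

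The ATF4 branch differed by more at its median than the ER genes. The median log2 fold change was 0.46 for Atf4, Ddit3, Trib3, Chac1 and Asns and 0.10 for the 15 tested of 21 ER chaperone and degradation genes, 0.35 apart. With 5 genes the branch median was the value of 1 gene, Asns, and the 5 ran from -0.11 to 0.65. The ER gene Dnajc3 also stood at 0.46. Of the 5 branch genes 2 rose and 3 did not pass. Of the 15 ER genes none passed in either direction, which for so few genes is near the 1.6% called over all genes. After centring each gene on its mean over 6 arrays, the median of the branch minus that of the ER genes was 0.17, 0.15 and 0.04 on truncated arrays 1, 2 and 3. On the full-length arrays it was -0.17, -0.18 and -0.19. The groups did not overlap, although truncated replicate 3 came closest to the other group. The ER genes taken alone did not overlap either, at 0.02, 0.09 and 0.05 against -0.01, -0.06 and -0.06. This distance is a description of a chosen list and was given no test. It was 0.28 without truncated replicate 1 and 0.41 without truncated replicate 3, and lay within 0.33 to 0.40 under the 11 alternatives that kept all arrays.

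**Figure D1:**
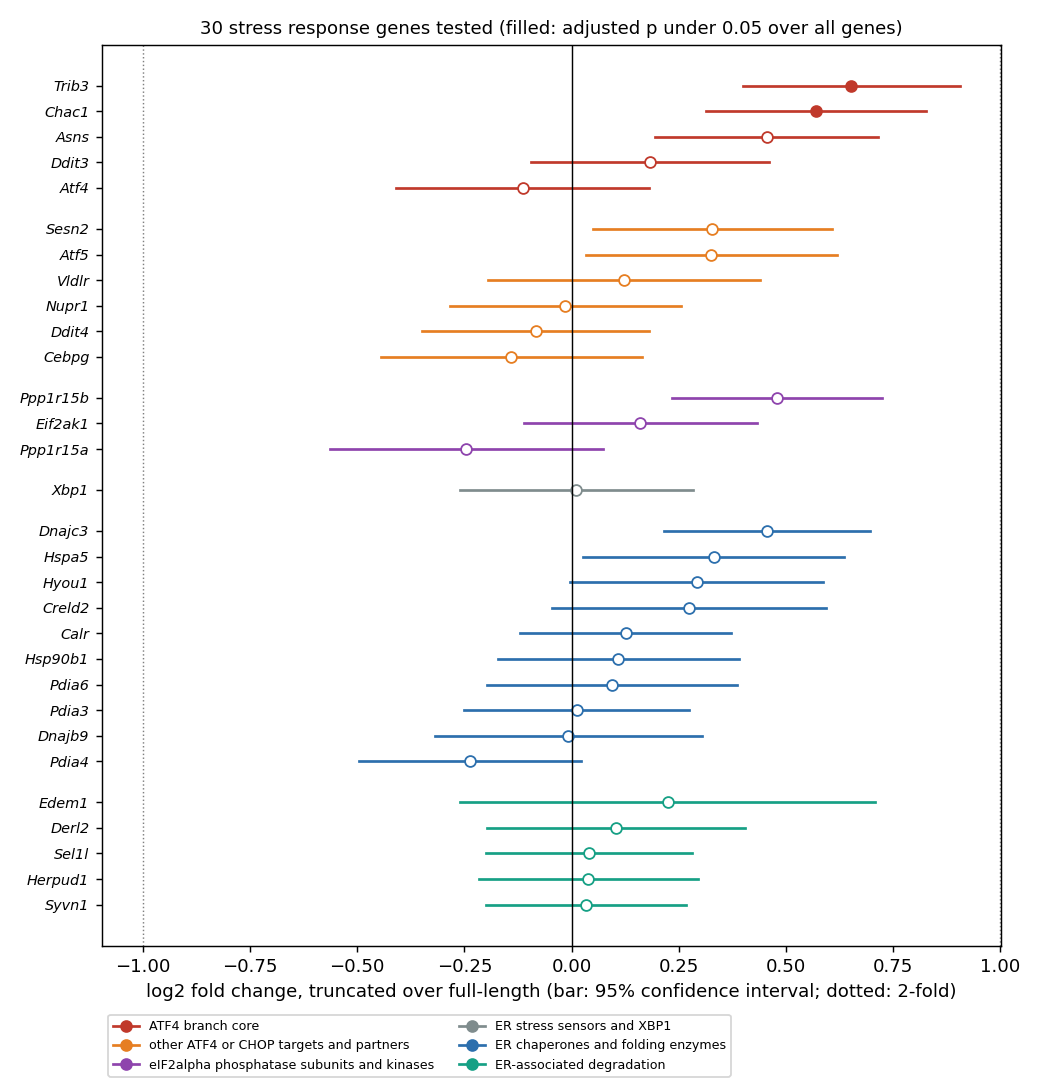
Log2 fold change, truncated over full-length NELF-B, of the 30 stress response genes tested, grouped by role, with 95% confidence intervals (3 arrays per group) and filled points for an adjusted p under 0.05 over all 8990 genes. Trib3 and Chac1 are the filled points at 0.65 and 0.57, and every interval lies within 2-fold either way.

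Trib3 encodes a pseudokinase that ATF4 and CHOP induce and that restrains ATF4 and AKT signalling. Its normalized log2 intensity was 9.34, 9.42 and 9.42 on the truncated arrays and 8.58, 8.82 and 8.82 on the full-length arrays. The groups stood well apart, with the lowest array being full-length replicate 1. The log2 fold change was 0.65 ± 0.11 (SE, n = 3 per group, adjusted p = 0.0372, limma), with a 95% interval of 0.40 to 0.91. In the deposited intensities, before any normalization, the probe read 665, 788 and 875 with truncated and 526, 605 and 555 with full-length NELF-B, again without overlap. The other Trib3 probes were dimmer and gave log2 fold changes of 0.47 ± 0.09 and 0.79 ± 0.20 in a fit of every probe, where the bright probe gave 0.65 ± 0.10. In deposited intensity the dimmer probes overlapped between the groups. They read 170, 190 and 201 with truncated against 171, 178 and 166 with full-length NELF-B, and 190, 206 and 225 against 199, 177 and 154.

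Chac1 encodes an enzyme that degrades glutathione and is induced by ATF4. Its 1 probe read 10.29, 10.52 and 10.34 on the log2 scale with truncated NELF-B and 9.89, 9.83 and 9.71 with the full-length form. No truncated array reached down to a full-length one. The log2 fold change was 0.57 ± 0.11 (SE, adjusted p = 0.0482, limma), with an interval of 0.31 to 0.83. Deposited intensities were 1189, 1553 and 1552 against 1121, 1088 and 933.

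Asns encodes asparagine synthetase, the standard readout of amino acid limitation in the ATF4 pathway. It read 11.82, 11.69 and 11.53 on the truncated and 11.27, 11.25 and 11.15 on the full-length arrays. The groups did not overlap, yet the gene did not pass over all genes, with a log2 fold change of 0.46 ± 0.11 and an adjusted p of 0.0859 (limma). Its dimmer probes gave 0.57 ± 0.11 and 0.46 ± 0.13, so all 3 had the same sign. One of them was above background on 1 of 3 full-length arrays.

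The transcripts of the factors themselves gave no call. Atf4 read 11.95, 11.97 and 12.05 with truncated and 11.94, 12.01 and 12.35 with full-length NELF-B, where full-length replicate 3 stood highest and the other arrays overlapped. Its log2 fold change was -0.11 ± 0.13 (adjusted p = 0.67, limma), with an interval of -0.41 to 0.18. The dimmer Atf4 probe had the opposite sign, at 0.12 ± 0.16. Ddit3, which encodes CHOP, the pro-apoptotic partner of ATF4, read 10.49, 10.65 and 10.56 against 10.35, 10.22 and 10.58, overlapping through full-length replicate 3. Its log2 fold change was 0.18 ± 0.12 (adjusted p = 0.445, limma), and 0.02 ± 0.14 at its dimmer probe. For both genes the interval of the brighter probe lay within 1.5-fold either way. An mRNA array does not read ATF4 protein.

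**Figure D2:**
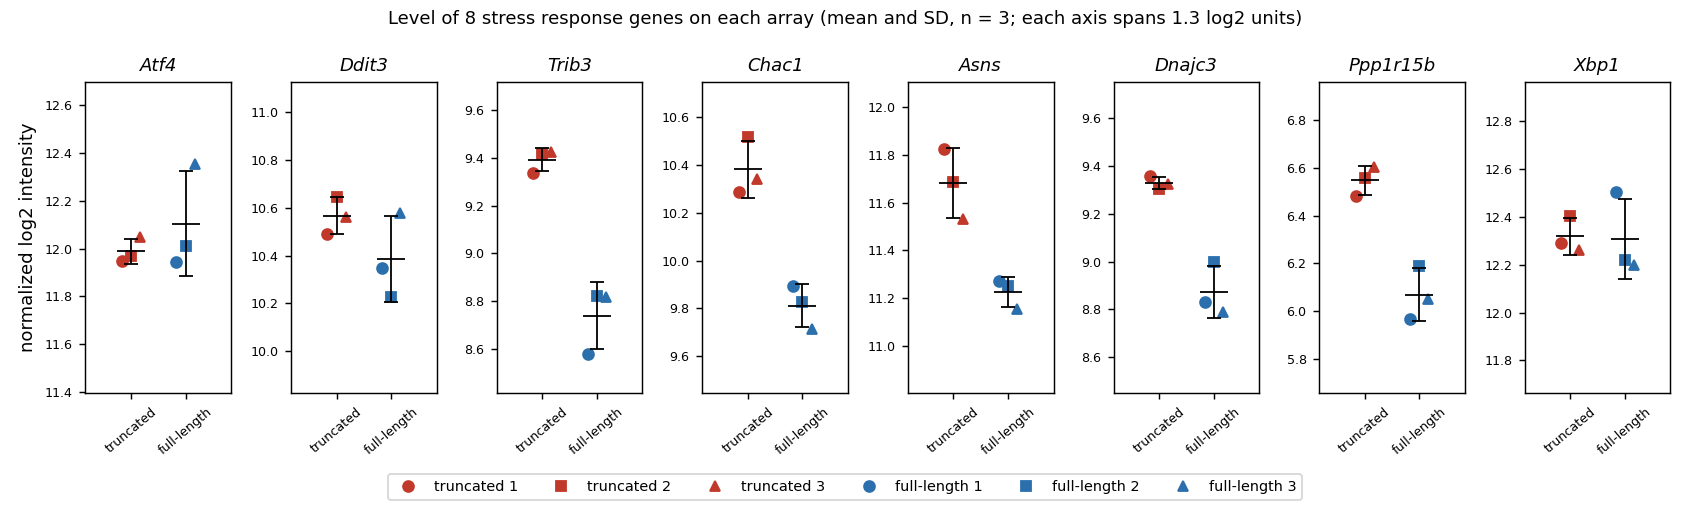
Normalized log2 intensity of 8 genes on each of 6 arrays (points, by replicate number), with the mean and SD of each group (n = 3, bars) and axes of equal span. Trib3, Chac1, Asns, Dnajc3 and Ppp1r15b separate the groups, while Atf4, Ddit3 and Xbp1 overlap.

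Both calls sat close to the threshold and were lost in most refits that left out 1 array. Such a refit also has fewer arrays, so the weight of an array and the loss of sample size cannot be told apart. For Trib3 and for Chac1 the two-sided exact permutation test gave p = 0.1, its lower limit with 3 arrays in each group. The adjusted p of Trib3 was 0.119, 0.121 and 0.047 without truncated replicates 1, 2 and 3, and 0.131, 0.101 and 0.0999 without full-length replicates 1, 2 and 3. For Chac1 the same refits gave 0.137, 0.141 and 0.0541, and 0.131, 0.123 and 0.126. The log2 fold changes in those refits stayed at 0.57 to 0.69 for Trib3 and 0.50 to 0.62 for Chac1, while the count over all genes fell from 144 to between 0 and 9 in 5 of the 6 refits and was 276 without truncated replicate 3. Leaving out replicate 1 of the truncated group gave 0 calls (1196 genes at an unadjusted limma p under 0.05), as did leaving out full-length replicate 1 (1434 genes) or replicate 2 of that group (1547 genes). The adjusted p also passed 0.05 under median scaling (0.0796 and 0.114), with no filter on dim probes (0.0587 and 0.0742) and with a replicate block (0.078 and 0.103), for Trib3 and Chac1 in that order.

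**Figure D3:**
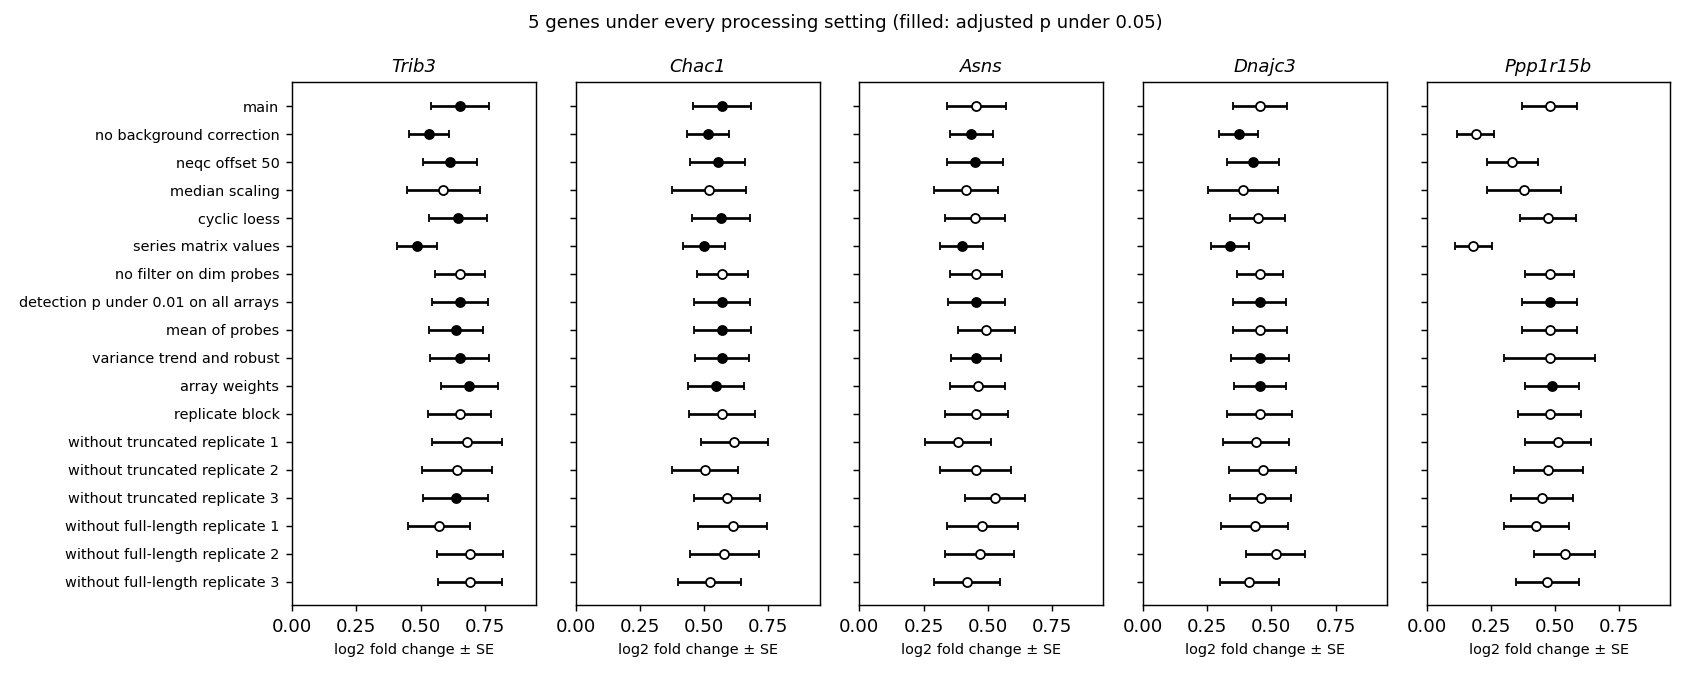
Log2 fold change ± SE of 5 genes under the chosen processing (named main) and 17 alternatives, with filled points for an adjusted p under 0.05. All values lie above 0, those of Trib3 between 0.49 and 0.69 and those of Chac1 between 0.50 and 0.62, while the calls come and go.

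The promoters of these genes hold elements by which targets of each branch are known, so their presence is no independent feature of the lists. ATF4 with a C/EBP partner binds the C/EBP-ATF response element (CARE), searched here as TGATGNAA on both strands of the 300-base RefSeq windows. Of 5 ATF4 branch genes 3 held a match, Asns, Chac1 and Trib3, against 1 of 18 ER genes with a window (Herpud1) and 3.97% of all 32851 windows. These 3 are the branch genes with the highest fold changes, and whether the element has a part in this was not tested. The windows of Atf4 and Ddit3 held none, which says only that these letters are not in these windows. The stretches that hold the matches are shown 5′ to 3′ on the gene's strand, with the match in capitals, from GRCm38.p6 positions chr6:7693210-7693272 (Asns, minus strand), chr2:119351009-119351096 (Chac1, plus strand) and chr2:152344031-152344086 (Trib3, minus strand).
Asns: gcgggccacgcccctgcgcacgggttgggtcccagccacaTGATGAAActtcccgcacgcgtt
Chac1: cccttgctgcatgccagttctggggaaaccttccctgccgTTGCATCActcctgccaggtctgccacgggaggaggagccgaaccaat
Trib3: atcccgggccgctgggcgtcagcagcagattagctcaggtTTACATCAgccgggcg
The Asns match begins 23 bases and the Chac1 match 193 bases before the annotated start site, and that of Trib3 at base 15 after it. The matches in Chac1 and Trib3 are on the opposite strand, so the motif reads there as its reverse complement. A match of letters does not show that a factor is bound. Outside the branch and the ER genes, Nupr1 and Vldlr also held the motif, and the 6 tested genes with it had log2 fold changes of -0.02 to 0.65.

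The other targets and partners of ATF4 and CHOP were split. None of the 6 passed, where 1.6% of all genes were called. Of the 6, 3 were above 0, against 51.7% of all genes, and the median log2 fold change was 0.05. Sesn2, a leucine sensor that restrains mTORC1, read 6.10, 6.18 and 6.08 against 5.81, 5.97 and 5.60, without overlap (0.33 ± 0.12, adjusted p = 0.186). With no background correction its log2 fold change was 0.11, and from the series matrix values also 0.11. The other Sesn2 probe was above background on no array. Atf5, a relative of ATF4 that is also translated under eIF2alpha phosphorylation, read 10.61, 10.43 and 10.32 against 10.13, 9.97 and 10.30 (0.33 ± 0.13, adjusted p = 0.205). The Atf5 groups were parted by only a narrow gap at full-length replicate 3. Ddit4, an inhibitor of mTORC1 (-0.08 ± 0.12), Nupr1, a small stress-induced chromatin protein (-0.02 ± 0.12), and Cebpg, a partner of ATF4 (-0.14 ± 0.13), overlapped between the groups. Vldlr, a lipoprotein receptor induced in this pathway, gave 0.12 ± 0.14 at its brightest probe and 0.31 ± 0.12 and 0.32 ± 0.14 at its other probes past the filter.

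The eIF2alpha control genes pointed in different directions. Ppp1r15b encodes CReP, the constitutive subunit that brings the phosphatase to eIF2alpha. It read 6.48, 6.56 and 6.60 with truncated and 5.97, 6.19 and 6.05 with full-length NELF-B, without overlap, but did not pass (0.48 ± 0.11, adjusted p = 0.0635, limma). With no background correction its log2 fold change was 0.19, and from the series matrix values 0.18. Ppp1r15a encodes GADD34, the stress-induced subunit of the same phosphatase and a target of ATF4 and CHOP. It read 8.26, 8.31 and 8.06 against 8.26, 8.39 and 8.71, with full-length replicate 3 highest and the groups overlapping (-0.25 ± 0.14, adjusted p = 0.371). The kinase gene Eif2ak1 gave 0.16 ± 0.12 (adjusted p = 0.494), and Eif2ak4 was above background on no array, its deposited intensities lying between 130 and 140.

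Of the ER sensors and their effector, only Xbp1 was measured. It read 12.29, 12.41 and 12.26 against 12.50, 12.22 and 12.20, overlapping throughout, with a log2 fold change of 0.01 ± 0.12 and an interval of -0.26 to 0.28. The probe's place in the transcript is not in the files, so spliced and unspliced Xbp1 cannot be told apart. The Ern1 probe was above background on no array.

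The ER chaperones and folding enzymes gave no call in either direction among 10 tested, where 1.6% of all genes were called. Their median log2 fold change was 0.12. Dnajc3 stood highest. It encodes P58IPK, an ER co-chaperone first described as an inhibitor of the eIF2alpha kinases PKR and PERK. It read 9.36, 9.31 and 9.32 on the truncated and 8.83, 9.00 and 8.79 on the full-length arrays, the groups lying apart with little spread among truncated arrays (0.46 ± 0.11, adjusted p = 0.0694, limma). It passed under 6 of 17 alternatives.

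Hspa5 encodes BiP, the central ER chaperone and the usual marker of the unfolded protein response. Its probe read near background, at 155, 154 and 163 in deposited intensity with truncated and 148, 150 and 150 with full-length NELF-B, and it was above background on 1 full-length array. Normalized levels were 5.49, 5.16 and 5.27 against 4.88, 4.88 and 5.17, overlapping by a narrow margin at full-length replicate 3 (0.33 ± 0.13, adjusted p = 0.214). With no background correction the log2 fold change was 0.09. The probe of Canx, the lectin chaperone calnexin, was above background on no array, and that of Manf, a secreted ER stress protein, on 1 truncated array.

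The other chaperone and folding genes showed small differences. Hsp90b1, the ER form of HSP90, gave 0.11 ± 0.12, and Calr, the lectin chaperone calreticulin, 0.13 ± 0.11. The disulfide isomerase genes Pdia3 (0.01 ± 0.12) and Pdia6 (0.09 ± 0.13) and the BiP co-chaperone gene Dnajb9 (-0.01 ± 0.14) also lay near 0, and the intervals of all 5 lay within 1.5-fold either way. Pdia4, a further isomerase, went the other way at 10.43, 10.50 and 10.62 against 10.62, 10.76 and 10.88. Its groups nearly touched without overlapping (-0.24 ± 0.11, adjusted p = 0.288). Hyou1, which exchanges nucleotide on BiP (0.29 ± 0.13, adjusted p = 0.251), and Creld2, an ER stress-induced protein (0.27 ± 0.14, adjusted p = 0.318), had intervals that reached just beyond 1.5-fold. With no background correction Hyou1, on a dim probe, gave 0.10.

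The ER-associated degradation genes lay close to 0, with all 5 tested above it by a median of only 0.04 and none called. Over all genes 51.7% were above 0 and 1.6% were called. Herpud1, a membrane component of the degradation complex, gave 0.04 ± 0.11, the ubiquitin ligase gene Syvn1 0.03 ± 0.10 and its partner Sel1l 0.04 ± 0.11. Derl2, part of the export channel, gave 0.10 ± 0.13. Each of these intervals lay within 1.5-fold either way. Edem1, which marks glycoproteins for degradation, read 6.50, 5.75 and 6.01 against 6.21, 5.77 and 5.60 and had a wide interval (-0.26 to 0.71), with a log2 fold change of 0.02 when truncated replicate 1 was left out and 0.40 when full-length replicate 1 was. Further probes of Sel1l (-0.18 ± 0.18 and -0.20 ± 0.19) and of Derl2 (-0.05 ± 0.16) had the opposite sign from the brightest. Over all 30 genes, 19 intervals lay within 1.5-fold and 30 within 2-fold, against 70.0% and 97.2% of all genes. For dim probes the interval bounds only the measured fold, which can understate a difference in RNA and which changed with the background correction.

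**Figure D4:**
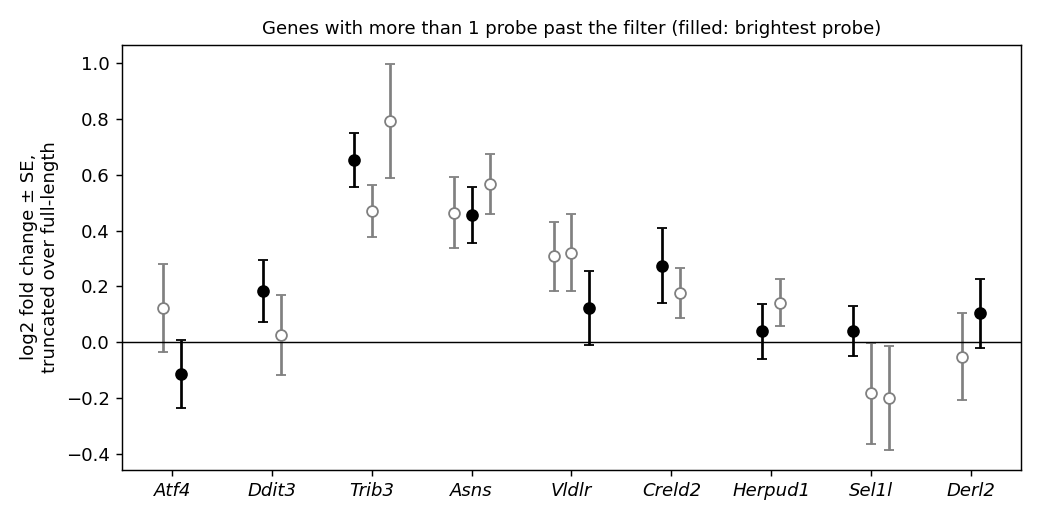
Log2 fold change ± SE, truncated over full-length NELF-B, of each probe past the filter for the 9 genes with more than 1 such probe, from a fit of every probe (filled, the brightest probe). The 3 probes of Trib3 and the 3 of Asns lie above 0.4, while the probes of Atf4, Sel1l and Derl2 disagree in sign.

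The ER stress response element (ERSE), which ATF6 and XBP1 bind with the factor NF-Y, was searched on both strands as CCAAT followed after 9 bases by CCACG. It was in the windows of 9 of 18 ER genes, Calr, Canx, Creld2, Derl3, Dnajc3, Hsp90b1, Hspa5, Pdia6 and Syvn1, in none of the 5 ATF4 branch genes, and in 0.119% of all windows. The shorter ERSE-II, ATTGG followed after 1 base by CCACG, was in Herpud1 and Dnajb11 and in 0.0365% of all windows, and the XBP1 element TGACGTGG in none of the 35 genes with a window and 0.676% of all. The stretches shown are those of the best known ER targets and of Dnajc3, with the matches in capitals, from chr2:34771985-34772083 (Hspa5, plus strand), chr10:86705493-86705694 (Hsp90b1, minus strand, 2 matches), chr14:118937787-118937885 (Dnajc3, plus strand) and chr8:94386277-94386427 (Herpud1, plus strand, a CARE match and then ERSE-II).
Hspa5: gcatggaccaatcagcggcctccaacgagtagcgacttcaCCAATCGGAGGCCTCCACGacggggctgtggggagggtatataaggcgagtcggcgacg
Hsp90b1: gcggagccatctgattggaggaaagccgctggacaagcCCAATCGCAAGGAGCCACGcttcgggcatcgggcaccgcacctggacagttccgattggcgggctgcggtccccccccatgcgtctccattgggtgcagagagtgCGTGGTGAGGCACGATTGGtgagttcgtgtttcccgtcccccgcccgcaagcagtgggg
Dnajc3: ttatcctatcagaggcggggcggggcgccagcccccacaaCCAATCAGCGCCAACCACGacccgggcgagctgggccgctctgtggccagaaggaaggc
Herpud1: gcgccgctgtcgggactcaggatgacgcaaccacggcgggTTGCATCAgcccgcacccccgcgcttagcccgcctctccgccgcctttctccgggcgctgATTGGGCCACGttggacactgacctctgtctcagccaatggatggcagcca
The 7 tested genes with an ERSE had log2 fold changes of 0.03 to 0.46 with a median of 0.13. None was called, where 1.6% of all genes were.

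Further genes of the pathway were read as lists. These lists were chosen with earlier results of these data known, so their counts are no independent evidence. Of 15 tested amino acid supply targets of ATF4, 3 rose and none fell, where 0.512% of all genes were called higher and 1.09% lower. Of the 15, 13 were above 0, against 51.7% of all genes, and the median log2 fold change was 0.26. Slc3a2, whose value of 0.26 is that median, passed the filter only through its 3 truncated arrays. It was above background on 0 full-length arrays, so its place among the genes above 0 carries no weight. Mthfd2, a mitochondrial folate enzyme, read 8.61, 8.86 and 8.57 against 7.83, 7.84 and 7.99 (1.74-fold, adjusted p = 0.0263, limma). The serine hydroxymethyltransferase gene Shmt2 was 1.54-fold higher (adjusted p = 0.0346), and Slc7a11, the cystine transporter, 1.97-fold higher on a dim probe (adjusted p = 0.0482). The arrays of the groups did not overlap for any of the 3, with truncated higher, as for 12.9% of all genes. With 1 array left out in turn, each of the 3 was called in 1 of 6 refits, with adjusted p of 0.047 to 0.137 for Slc7a11, 0.0442 to 0.135 for Shmt2 and 0.0325 to 0.117 for Mthfd2 (limma). For all 3 genes that was the refit without truncated replicate 3. Median scaling ended the calls of Slc7a11 (adjusted p = 0.0655) and Shmt2 (0.0721), the replicate block those of Shmt2 (0.0788) and Mthfd2 (0.0655), and no filter on dim probes that of Slc7a11 (0.0861). The log2 fold change of Slc7a11 was 0.98, but 0.33 with no background correction and 0.32 from the series matrix values. Its probe was above background on 2 of 3 full-length arrays. Of 9 tested tRNA charging targets none passed, where 1.6% of all genes were called. Of these targets 8 were above 0, against 51.7% of all genes, and the median was 0.26. Wars gave 0.42 ± 0.11 (adjusted p = 0.0865, limma) and Mars1 0.43 ± 0.13 (adjusted p = 0.122, limma).

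None of the lists in this paragraph gave a call, which at their sizes is near the 1.6% called over all genes. Of 11 tested stress and death outputs of ATF4 and CHOP, 5 were above 0 and the median was -0.00. Eif4ebp1, a translational repressor and ATF4 target, gave 0.38 ± 0.12 (adjusted p = 0.123), and Bcl2l11, the death effector BIM that CHOP can induce, -0.56 ± 0.14 (adjusted p = 0.0833). Bcl2l11 was called lower under 7 of 17 alternatives, while the mean of its probes gave -0.25 (adjusted p = 0.352). Of 10 genes of eIF2, its exchange factor eIF2B and their regulators none passed, with a median of 0.11, Eif2b2 at 0.28 ± 0.11 and the kinase gene Eif2ak2 at -0.18 ± 0.12. Of 28 other ER folding, translocation and degradation genes none passed, 17 were above 0 and the median was 0.05. There, Sec63, a translocon partner, gave 0.48 ± 0.10 (adjusted p = 0.052) and Os9, a lectin of the degradation pathway, -0.53 ± 0.15 (adjusted p = 0.105). Of 8 ER stress membrane factors none passed, with Mbtps2, a protease that cleaves ATF6, at 0.57 ± 0.20 and the transcription factor gene Creb3l1 at -0.47 ± 0.19. With no background correction these were 0.18 and -0.19.

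S phase genes, a measure of growth and also a list chosen with earlier results known, differed with the groups as well. Of 12 such genes 12 were above 0, with a median of 0.48, where 51.7% of all genes were above 0. On 10 of the 12 every truncated array lay above every full-length array, against 12.9% of all genes. Over all genes 0.512% were called higher, and of the 12, Rrm2 (0.74 ± 0.12, adjusted p = 0.0347, limma) and Mcm3 (0.74 ± 0.14, adjusted p = 0.0482, limma) rose. Each was called in 1 of 6 refits that left out an array, the one without truncated replicate 3, and neither was called under median scaling, with no filter on dim probes or with a replicate block. The centred median of the S phase genes was 0.35, 0.29 and 0.06 on truncated arrays 1, 2 and 3 and -0.19, -0.22 and -0.35 on the full-length arrays. That of the ATF4 branch was 0.19, 0.23 and 0.09 against -0.18, -0.24 and -0.25. Truncated replicate 3 was thus the lowest truncated array in both. Fibroblast markers had a median of -0.24 over 9 genes, none of them called, where 1.6% of all genes were called. Of the 9, 2 were above 0, against 51.7% of all genes. On 5 every truncated array lay below every full-length array, which held for 12.8% of all genes. Col3a1 gave -0.66 ± 0.15 (adjusted p = 0.0697, limma) and Col1a2 -0.58 ± 0.12 (adjusted p = 0.0522, limma). The part of growth and of fibroblast markers in the stress gene result was not tested.

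**Figure D5:**
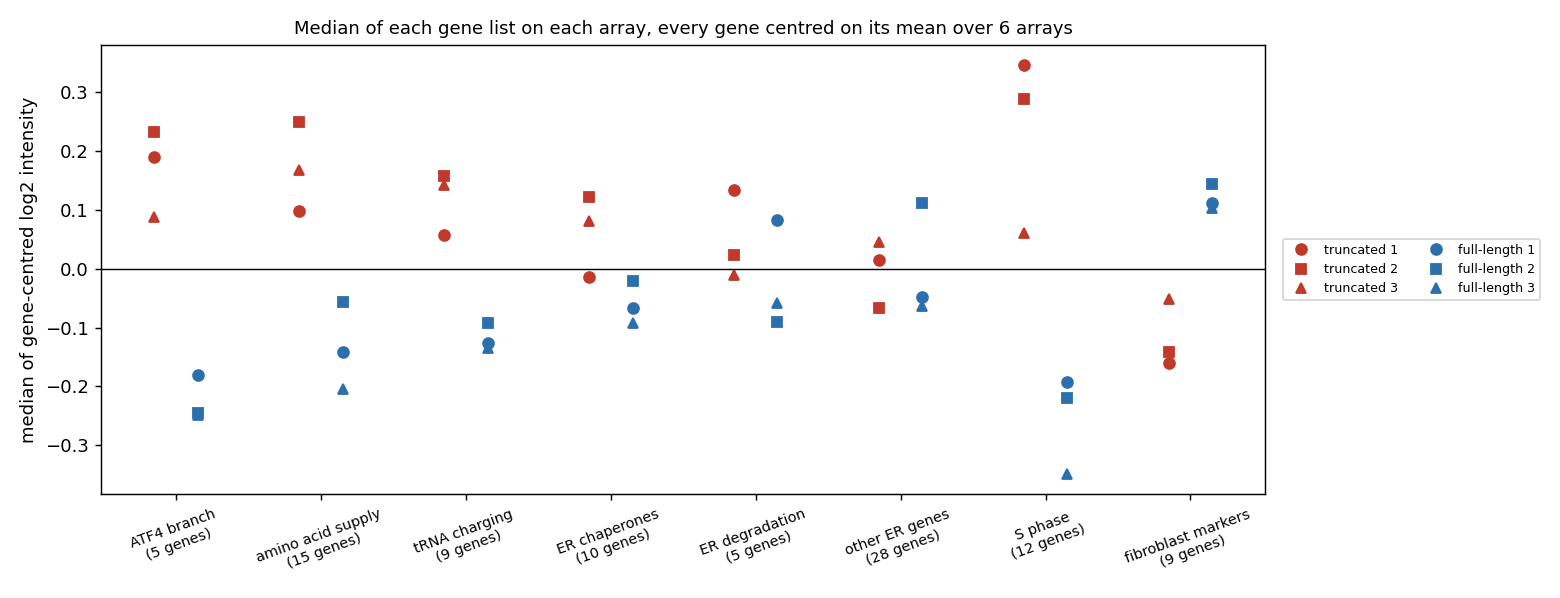
Median over the tested genes of each list of the log2 intensity centred on the gene's mean, on each of 6 arrays (points). The ATF4 branch, amino acid supply and tRNA charging lists and the S phase list lie above 0 on every truncated array and below 0 on every full-length array, whereas the ER degradation and other ER lists overlap between the groups and the ER chaperones lie closer together without overlap.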

How the data were processed

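Total RNA of mouse embryonic fibroblasts was labelled with biotin and read on single-colour Illumina bead arrays, 3 for each form of NELF-B, grouped and numbered by their titles. The deposited table gives, per the file headers, non-normalized mean intensities with detection p-values, for 25697 probes per array. The submitters' processing notes name GenomeStudio without version or settings. The series matrix, also deposited, holds intensity values that look quantile normalized, a step no label records. Its column medians were 143 on every array, its columns follow the first table (r of 0.999 or more, same direction, linear scale), and it served only as an alternative. No value column was left unused (0 columns). No source used here gives chip or scan, and no chip block was run.

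Probes were named by RefSeq accession (24202 probes), current symbol (536), unique synonym (297) or the file's symbol (662) through the GRCm38.p6 gene table. Background was corrected with limma 3.58.1 (R 4.3.3) by neqc from the detection p-values with an offset of 16, followed by quantile normalization and log2. Probes above background (detection p under 0.05) on 3 or more of 6 arrays were kept, and a gene was read by its brightest probe (8990 genes tested). Truncated was compared with full-length by lmFit and eBayes, with Benjamini-Hochberg adjustment over all 8990 genes at a threshold of 0.05. The fit was tested on simulated data with independent noise for each gene and no array-wide shifts. That test does not bear on how the calls depend on arrays or processing. The members and gene lists were chosen with earlier results of these data known. Genes named are all members and, of each further list, those called and the 2 with the smallest p. The 17 alternatives changed the background correction, normalization, filter, probes per gene, variance model, array weights, block and arrays used. The labels give replicate numbers but no pairing. Same-numbered arrays of the groups had correlations of 0.03, -0.16 and -0.14 between their deviations from the group means. Differently numbered arrays had -0.04 to 0.18. With 3 arrays per group these values cannot show whether the samples were paired.

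Promoter windows (250 bases before to 50 after the start site) are those of RefSeq, GRCm38.p6. Of 40 genes 35 matched a window by symbol. Matches were sought on both strands, and no matches overlapped in these genes (0 overlaps). Figures were drawn with matplotlib 3.10.9 and exact permutation tests run with scipy 1.17.1.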

Additional observations from a re-analysis of the deposited data

How the results depend on the processing

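With 3 arrays per group, the calls changed as single arrays were left out, which also leaves fewer arrays to fit. Without each array in turn the count of genes called ranged from 0 to 276 (3.07%). That of stress response genes ranged from 0 to 1, and the distance between the ATF4 branch and the ER genes from 0.28 to 0.41. The chosen processing called 144 genes (1.6% of those tested) and 2 of 30 stress response genes. No background correction gave 706 (7.85%) and 4. A neqc offset of 50 gave 536 (5.96%) and 4, and median scaling 81 (0.901%) and 0. The series matrix values gave 732 (8.14%) and 4. With no filter on dim probes 33 of 17913 genes (0.184%) and 0 of 36 stress response genes were called. A detection p under 0.01 on all arrays gave 335 of 7406 (4.52%) and 5 of 28. A variance trend with robust eBayes gave 723 (8.04%) and 4. Array weights gave 355 (3.95%) and 4, and a replicate block 33 (0.367%) and 0. The cause of these shifts was not tested. Where 4 or 5 were called, they were Trib3 and Chac1 with Asns, Dnajc3 or Ppp1r15b. Of the genes called, 68.1% were lower in the chosen processing, 52.5% with no background correction and 85.2% with median scaling. Whether replicate numbers pair the samples is not known, and the block fit removed every stress response call.

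Signs turned only for 9 genes near 0, none of them called. Each value of turned sign had an adjusted p of 0.622 or more (limma). Median scaling gave -0.027 for Xbp1, -0.019 for Pdia3, -0.010 for Pdia6 and -0.017 for Sel1l. The mean of probes gave 0.0031 for Atf4 and -0.11 for Sel1l, and array weights 0.014 for Nupr1, -0.033 for Xbp1 and -0.013 for Herpud1. Leaving out arrays gave -0.19 to 0.011 for Atf4, -0.060 to 0.072 for Nupr1, -0.043 to 0.11 for Xbp1, -0.055 to 0.066 for Pdia3, -0.017 to 0.19 for Pdia6, -0.093 to 0.11 for Dnajb9, -0.012 to 0.10 for Herpud1, -0.0049 to 0.082 for Syvn1 and -0.018 to 0.069 for Sel1l. Trib3, Chac1, Asns, Dnajc3 and Ppp1r15b stayed above 0 under all 17 alternatives. Probes near background, such as that of Hspa5, limit what can be read of their genes. No chip block was run.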
